A study of Mus musculus with 16 samples.

Results

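Baseline transcript levels were compared between 2 populations of mouse bone marrow progenitors, multipotent progenitors (MPP) and granulocyte-monocyte progenitors (GMP). All 16 libraries of the series entered the comparison, 8 from MPP and 8 from GMP. The deposited tables hold 23393 gene symbols that could be joined between the populations, and 10315 of them had a mean signal of 50 or more in at least 1 population and were compared. Each population's mean pools both genotypes, so the population differences below are values without a replicate error and without a test. The level of a gene is its mean as a share of the population's summed means without the ribosomal RNA gene Rn45s, scaled to a sum of 1000000 and written as ppm. The tables were normalized separately, and a mean of 50 equals a level of 5.68 ppm in MPP and 4.98 in GMP.

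The study sorted both populations from the bone marrow of individual mice aged 40 weeks. MPP carried no lineage markers, were positive for Kit, Sca1 and CD48 and negative for CD150, while GMP carried no lineage markers, were positive for Kit and CD16/32 and negative for Sca1 and CD150. Of each population 4 libraries came from mice of genotype Tet2fl/fl, titled WT, which carry the floxed allele, and 4 from mice of genotype Tet2-/-, titled Tet2KO. What drove the deletion, and in which cells, is not given in the sources used here. By their mouse numbers, 3 mice per genotype gave both populations, of 5 mice per genotype in all, so the populations do not come from independent sets of animals. In WT the 2 numbers found in 1 population only begin with the same digits and were read as different mice, and whether either is mistyped is not known. No treatment is named in the labels.

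MPP sit early in blood formation and can still give rise to lymphoid and myeloid cells. GMP are later progenitors that make granulocytes and monocytes, and fill their first granules with proteases and peroxidase that pass through the endoplasmic reticulum. C/EBP factors and PU.1 are transcription factors known to drive granule protein genes, whereas FLT3 signalling and the recombination genes belong to lymphoid-biased MPP.

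The 5 marker genes lay on the side of the population that each is known to mark, and only Ly6a encodes an antigen of the sort. Mpo, the myeloperoxidase of primary granules (chromosome 11, 87793581 to 87804413, plus strand, GRCm38), was at 2692 ppm in MPP and 19936 in GMP, a log2 ratio of GMP over MPP of 2.89. Elane, neutrophil elastase (chromosome 10, 79886247 to 79888215, plus strand), was at 92.7 and 2342, a log2 ratio of 4.66. Ctsg, the granule protease cathepsin G (chromosome 14, 56099881 to 56102574, minus strand), was at 98.6 and 829, a log2 ratio of 3.07. All 3 granule genes were thus already present in MPP and made up far more of the GMP signal. Flt3, a cytokine receptor of early progenitors (chromosome 5, 147330741 to 147400489, minus strand), was at 328 ppm in MPP and 59.97 in GMP, a log2 ratio of -2.45. Ly6a, which encodes the sorted antigen Sca1 (chromosome 15, 74994877 to 74998031, minus strand), was at 30.2 and 1.95, a log2 ratio of -3.96. Of these 5, only Ly6a carried no outlier mark in either of the authors' tables. Such a mark leaves a gene without a p-value, and the tables do not say which library it concerns.

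The other genes of the sort are given only as a check. Fcgr3, which encodes CD16, was at 2.19 ppm in MPP and 52.3 in GMP, and Fcgr2b, which encodes CD32, at 6.64 and 32.7. Slamf1, which encodes CD150 and was selected against in both populations, was below the minimum in both, at 3.04 and 0.376. Kit was at 857 and 637 and Cd48 at 117 and 127, each within a fold of 2. Itgam, which encodes the myeloid lineage marker CD11b, was at 95.5 ppm in MPP and 57.0 in GMP and was marked as an outlier in both tables, although both populations were sorted as lineage-negative. Ptprc, the leukocyte antigen CD45, was at 452 and 316, and Cd3e, of the T cell receptor complex, at 0.0757 and 0.0249.

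Stretches before the gene start are shown for the 3 granule markers and for Dntt, the gene of the lymphoid list described below with a level above 100 in MPP and the widest gap to GMP, because these members carry the contrast between the populations. Sequences are from RefSeq, build GRCm38.p6, on the gene's strand, and end before the first base of the gene in RefSeq or GENCODE, whichever comes first. Capitals mark matches, on either strand, to 6 short motifs: GAGGAA is the core known for PU.1, TGTGGT that for RUNX factors, and AGATAA that for GATA factors, while TATAAA is the TATA box. TTGCNNAA, known for C/EBP factors, and the E-box CACGTG were searched too and had no match in these stretches. In order, they lie at chr11:87793534-87793580 (plus strand), chr10:79886062-79886246 (plus strand), chr14:56102575-56102824 (minus strand) and chr19:41029025-41029274 (plus strand).
Mpo: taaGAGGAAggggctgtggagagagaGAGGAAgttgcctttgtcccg
Elane: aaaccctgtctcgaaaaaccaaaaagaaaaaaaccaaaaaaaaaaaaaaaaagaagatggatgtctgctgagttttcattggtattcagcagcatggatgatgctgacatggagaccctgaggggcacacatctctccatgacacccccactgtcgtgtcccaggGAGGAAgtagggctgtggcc
Ctsg: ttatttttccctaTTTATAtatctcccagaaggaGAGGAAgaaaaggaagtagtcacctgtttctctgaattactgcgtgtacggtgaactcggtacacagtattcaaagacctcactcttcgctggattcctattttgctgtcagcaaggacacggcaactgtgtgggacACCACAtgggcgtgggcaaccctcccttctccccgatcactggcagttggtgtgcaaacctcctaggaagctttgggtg
Dntt: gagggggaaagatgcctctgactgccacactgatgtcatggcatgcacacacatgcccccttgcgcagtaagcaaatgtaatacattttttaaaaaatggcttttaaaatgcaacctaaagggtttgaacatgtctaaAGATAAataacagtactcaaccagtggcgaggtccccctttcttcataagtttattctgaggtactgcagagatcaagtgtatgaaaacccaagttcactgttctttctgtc

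GAGGAA stood in the windows of Mpo, Elane and Ctsg and not in that of Dntt, which held AGATAA. Over the whole RefSeq window, 250 bases before to 50 after the start, 12 of the 28 genes with a promoter among the 40 that were 8-fold or more higher in GMP held GAGGAA (42.9%), against 25 of 66 with a promoter among the 95 that were 8-fold or more higher in MPP (37.9%) and 27.0% of the 7830 promoters of compared genes. For TTGCNNAA the shares were 21.4% (6 of 28), 7.58% (5 of 66) and 8.08%. TGTGGT was held by 21.4%, 25.8% and 12.2%, AGATAA by 10.7%, 13.6% and 6.09%, TATAAA by 10.7%, 15.2% and 6.44%, and CACGTG by 3.57%, 4.55% and 10.8%. Of the GMP promoters inspected, that of Ms4a3, a membrane protein gene of granulocyte precursors, held TTGCACAA 41 bases after the start, next to GAGGAA at 35 bases. A match describes these letters and is not a bound site.

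Over all compared genes the populations were close. The level of 7933 genes (76.9%) lay within a fold of 1.5, and the middle of the distribution, with a median log2 ratio of -0.09, ran from -1.36 to 0.64 between the 5th and 95th percentiles. Across genes, which are not independent replicates, the log levels of both populations had a Pearson correlation of 0.920 and a Spearman correlation of 0.946. At a fold of 2 or more, 265 genes were higher in GMP (2.57%) and 842 were higher in MPP (8.16%), so that 23.9% of the genes past that fold were on the GMP side. At a fold of 8 or more the numbers were 40 and 95. At the threshold, a log2 ratio of 1, Ifitm7 lay just inside at 1.0007 and Neu1 just outside at 0.996, and on the MPP side a gene with a clone number lay just inside at -1.0007 and Pbxip1 just outside at -0.998. Of the genes past a fold of 2, 10 on the GMP side and 69 on the MPP side carry only clone or model numbers and are not named.

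Genes that differed between the populations often carried the authors' outlier mark. Of the genes higher in GMP with a mean of 10 or more, 21.7% were marked in the MPP table and 18.9% in the GMP table, and of those higher in MPP 13.1% and 6.73%, beside 3.57% and 2.83% of all compared genes. Without every gene marked in either table, 184 genes were higher in GMP and 702 higher in MPP. The part of single libraries in the differences below was not tested. Where a list median given below moves by over 1.5 times without marked genes, that second median is given too. In bulk RNA, fewer cells of a type and less RNA per cell cannot be told apart.

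**Figure D1:**
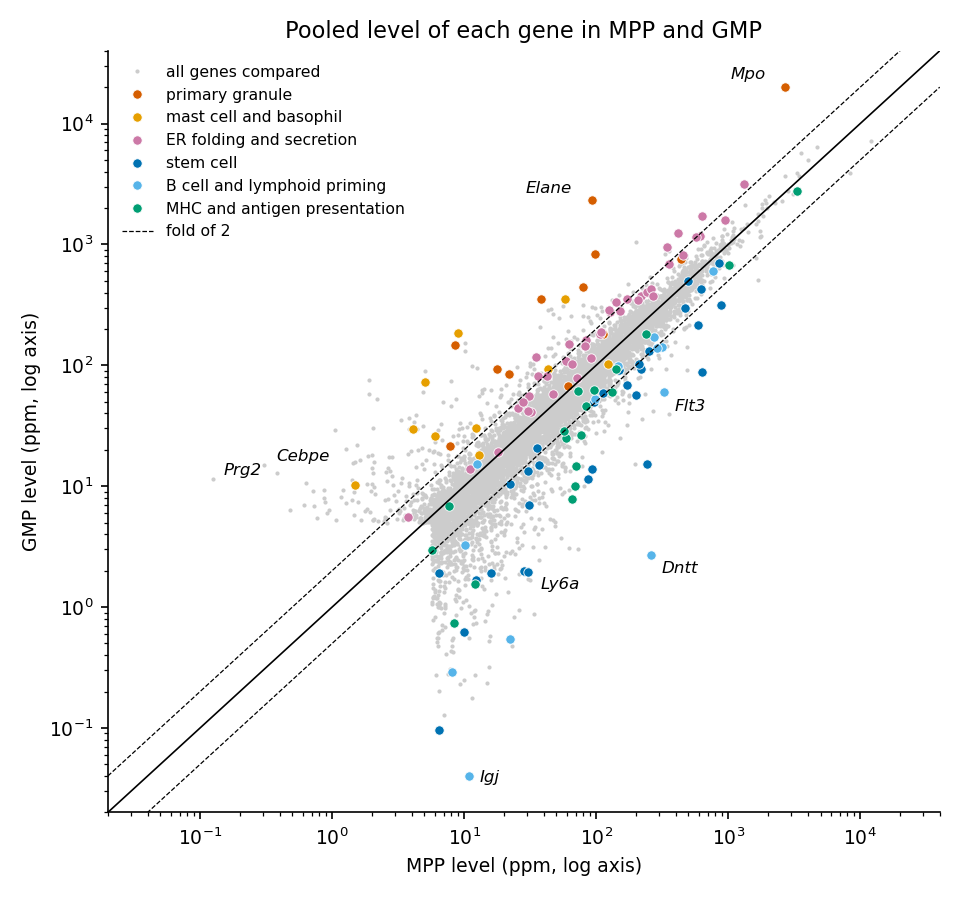
Level of every compared gene in MPP (x axis) and GMP (y axis), both ppm on log axes; each point is 1 gene's mean over 8 libraries, coloured points are members of 6 lists, the solid line marks equal levels and the dashed lines a fold of 2. Most granule, mast cell and secretion genes lie above the diagonal, Mpo at 2692 and 19936, and most stem cell, lymphoid and antigen presentation genes below it, Dntt at 261 and 2.72.

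Of the 10 genes with the largest shares of signal in each population, which are not corrected for transcript length, 7 were the same. In MPP Xist, the noncoding RNA of X inactivation, took the largest share at 12061 ppm, followed by the nuclear noncoding RNA Malat1 at 8395. In GMP they stood at 7146 and 3897. Mpo took the largest share in GMP, and Hsp90b1, a chaperone of the endoplasmic reticulum, entered the 10 highest genes there, at 3133 against 1325 in MPP. Eef1a1, a translation elongation factor, was at 3424 and 3683 (log2 ratio 0.11), the smallest ratio among these genes, whereas Lars2, the mitochondrial leucyl-tRNA synthetase, was at 3588 and 5677 (0.66). Xist and Hsp90b1 were marked as outliers in both populations, Malat1 in GMP, and Mpo and Lars2 in MPP. Of the 14 reference genes none passed a fold of 2, and their median log2 ratio was 0.15.

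Primary granule genes were higher in GMP. Of 13 listed genes 12 were compared, 9 were higher in GMP at a fold of 2 or more and none in MPP, with a median log2 ratio of 2.44. The list includes the markers Mpo, Elane and Ctsg given above. The summed level of the list was 3670 ppm in MPP and 25262 in GMP, of which Mpo alone made up 2692 and 19936. Ms4a3 was at 8.51 and 148, a log2 ratio of 4.12. Igsf6, an immunoglobulin superfamily gene of myeloid cells, was at 38.4 and 356, a log2 ratio of 3.21. Prtn3, the granule protease proteinase 3, was at 79.1 and 442, a log2 ratio of 2.48. Other members differed far less. Srgn, the proteoglycan core that packs granule contents, was at 439 and 758 (0.79), and Ctsc, the protease that activates granule serine proteases, at 61.1 and 67.3 (0.14). Without the 8 marked genes 4 were left, 1 of them past a fold of 2, with a median of 0.74.

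Genes of later neutrophil stages were mostly at very low levels. Only 8 of 20 matched genes reached the minimum, 6 of them higher in GMP and 1 in MPP, with a median of 1.48. Hp, haptoglobin, was at 4.91 ppm in MPP and 59.9 in GMP (log2 ratio 3.61), and Lcn2, the iron-binding lipocalin of secondary granules, at 1.63 and 16.5 (3.34). Cxcr2, the chemokine receptor of mature neutrophils, was at 18.99 and 63.9 (1.75). Hp and Cxcr2 were marked as outliers in MPP and Lcn2 in GMP. The genes that define mature secondary granules, Ltf and Camp, lay far below the minimum, at 0.397 and 0.428 in MPP and 0.0930 and 0.179 in GMP. Padi4, a histone-modifying deiminase, went the other way at 40.9 and 14.5 (-1.50). With every gene above 0 in both tables taken in, the list's median was -0.47.

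Monocyte genes were higher in GMP in 10 of 17 compared members and in MPP in none, with a median of 1.19, or 0.70 over the 10 unmarked members. Ly6c2, a surface antigen of inflammatory monocytes, was at 5.05 ppm in MPP and 90.1 in GMP (log2 ratio 4.16). F13a1, a clotting factor subunit of monocytes, was at 37.6 and 208 (2.47), and Ccr2, the receptor that brings monocytes to tissue, at 43.0 and 139 (1.69). Csf1r, the receptor for macrophage colony-stimulating factor, was at 33.8 and 92.7 (1.46). Ly6c2, F13a1 and Ccr2 were marked as outliers in both tables and Csf1r in MPP. Of the 10 unmarked members 4 passed a fold of 2, all higher in GMP. Lyz2, lysozyme, was at a similar level in both, 184 and 181 (-0.03). Of 7 NADPH oxidase genes, which make the oxidative burst, 2 were higher in GMP and none in MPP. Cybb, the catalytic subunit, was at 6.01 and 26.0 (2.11) and was marked as an outlier in MPP. Ncf1, a cytosolic subunit, was at 64.7 and 136 (1.07), while Cyba, the partner of Cybb in the membrane, was at 5.67 and 6.25 (0.14).

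Mast cell and basophil genes were higher in GMP, where 8 of 10 compared genes passed a fold of 2 in that direction and none in the other. Their median was 2.36, or 1.11 over the 5 unmarked genes. Hdc, the enzyme that makes histamine, was at 8.94 ppm in MPP and 185 in GMP (log2 ratio 4.37). Ms4a2, a subunit of the high-affinity IgE receptor, was at 5.01 and 73.4 (3.87). Cpa3, a mast cell carboxypeptidase, was at 57.9 and 354 (2.61). Hdc was marked as an outlier in GMP, and Ms4a2 and Cpa3 in both tables. Of the 5 unmarked genes 3 passed a fold of 2, among them Fcer1a at 1.49 and 10.2 (2.79) and Mcpt8 at 6.01 and 26.0 (2.11). Gata2, a transcription factor that mast cells share with stem cells, lay slightly the other way at 124 and 102 (-0.28). Of 9 eosinophil genes 7 lay below the minimum, and the 2 compared, Siglec5 at 9.68 and 30.1 (1.64) and Prg2, were higher in GMP. Prg2, the major basic protein of eosinophil granules, had the largest ratio of all compared genes on the GMP side, at 0.125 and 11.4 (6.51). Its mean signal in MPP was only 1.10, so the size of that ratio is poorly fixed, and it was marked as an outlier in GMP. Among the 7, eosinophil peroxidase, Epx, was at 0.758 and 4.24, and Ccr3, the eotaxin receptor, at 1.61 and 1.22.

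Dendritic cell genes leaned to MPP, with all 8 ratios below 0. At a fold of 2 or more, 5 of the 8 compared genes were higher in MPP and none in GMP. The list median was -2.21, and -0.51 over the 4 unmarked genes, of which 1 passed that fold. The list includes the marker Flt3 given above, which also counts in the lymphoid and cytokine receptor lists. Clec9a, a receptor of cross-presenting dendritic cells, was at 10.7 ppm in MPP and 1.72 in GMP (log2 ratio -2.64). Xcr1, a chemokine receptor of the same cells, was at 6.32 and 1.00 (-2.66). Clec9a and Xcr1 were marked as outliers in MPP. Irf8, a transcription factor of monocytes and dendritic cells, which is in the monocyte list, was at 48.3 and 86.9 (0.85). Siglech, which defines plasmacytoid dendritic cells, was near 0 in both, at 0.206 and 0.0268.

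Lymphoid priming genes were higher in MPP and held the largest ratios of that side. Of 13 compared genes 8 were higher in MPP and none in GMP, with a median of -1.16. Dntt, the template-free DNA polymerase of antigen receptor rearrangement (chromosome 19, 41029275 to 41059525, plus strand), was at 261 ppm in MPP and 2.72 in GMP, a log2 ratio of -6.59. Igj, the immunoglobulin joining chain, was at 10.9 and 0.0401 (-8.08), with a GMP mean signal of 0.402, so that only a large gap and not its size can be read. Dntt and Igj were marked as outliers in MPP. Lax1, an adaptor of lymphocyte signalling, was at 22.2 and 0.548 (-5.34), and Il7r, the interleukin 7 receptor of lymphoid progenitors, at 8.04 and 0.292 (-4.79). Satb1, a chromatin organizer, was at 317 and 142 (-1.16), and Ikzf1, the lymphoid transcription factor Ikaros, at 770 and 608 (-0.34). Pax5, the factor that fixes B cell identity, was nearly absent from both, at 0.150 and 0.0127.

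T and NK cell genes reached the minimum in 6 of 18 cases, 4 higher in MPP and 1 in GMP, with a median of -2.24. Gata3, a transcription factor of T cells, was at 12.0 ppm in MPP and 0.934 in GMP (log2 ratio -3.68), and Lck, a kinase of the T cell receptor, at 8.74 and 0.864 (-3.34). Nkg7, a granule membrane protein of cytotoxic cells, was the member higher in GMP, at 79.4 and 194 (1.29), and is the only member with a mean of 50 or more in both tables. The CD3 chains were close to 0 in both populations, Cd3e at 0.0757 and 0.0249.

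Stem cell genes were higher in MPP in 21 of 30 compared members and higher in GMP in none, with a median of -1.37. Nkx2-3, a homeobox factor, was at 6.49 ppm in MPP and 0.0962 in GMP (log2 ratio -6.08), with a GMP mean signal below 10, so the size of that ratio is poorly fixed. Vldlr, a lipoprotein receptor, was at 241 and 15.4 (-3.97) and Esam, an endothelial and stem cell adhesion molecule, at 9.91 and 0.627 (-3.98). Mycn, a MYC family factor, was at 28.3 and 2.00 (-3.82). Among the abundant members, Msi2, an RNA-binding protein of stem cell maintenance, was at 889 and 313 (-1.50), whereas Etv6, an ETS repressor, was at 845 and 695 (-0.28) and Cd34, a sialomucin of progenitors, at 624 and 428 (-0.54). Runx1, a core factor of blood formation, was the single member above 0, at 493 and 502 (0.03).

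Of the homeobox list with its cofactors, 7 of 13 compared genes were higher in MPP and none in GMP, and all 13 ratios were below 0, with a median of -1.09 and no outlier mark. Hoxa10 was at 9.55 and 1.94 (-2.30), Hoxa9 at 22.1 and 10.4 (-1.09), and Meis1, a cofactor of HOXA9, at 201 and 56.3 (-1.83). Megakaryocyte genes were higher in MPP in 8 of 14 cases and in GMP in none, with a median of -1.04, or -0.56 over the 9 unmarked genes. Mmrn1, a platelet granule protein, was at 49.0 and 5.10 (-3.26). Itga2b and Vwf, defining genes of the lineage, were close between the populations, at 30.9 and 27.8 (-0.15) and at 7.19 and 6.67 (-0.11).

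Erythroid genes did not move in 1 direction. Of 15 compared genes 3 were higher in MPP at a fold of 2 or more and none in GMP, with a median of 0.27, but 12 carried an outlier mark in MPP and 13 in GMP, and the single gene marked in neither, Alas2, was at 10.8 and 4.86 (-1.15). Car2, a carbonic anhydrase, was at 463 and 203 (-1.19), and Car1, another, at 121 and 157 (0.38). Hba-a1 and Hba-a2, which encode alpha globin, were listed at 0 in both populations. How reads were counted is not known, so these 0 values are not read as absence of the transcript. Of the stromal and endothelial genes 3 of 16 were compared and 1, Emcn, was higher in MPP, at 20.6 and 2.86 (-2.85), and Cdh5, which defines endothelium, stood at 0.345 and 0.110.

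**Figure D2:**
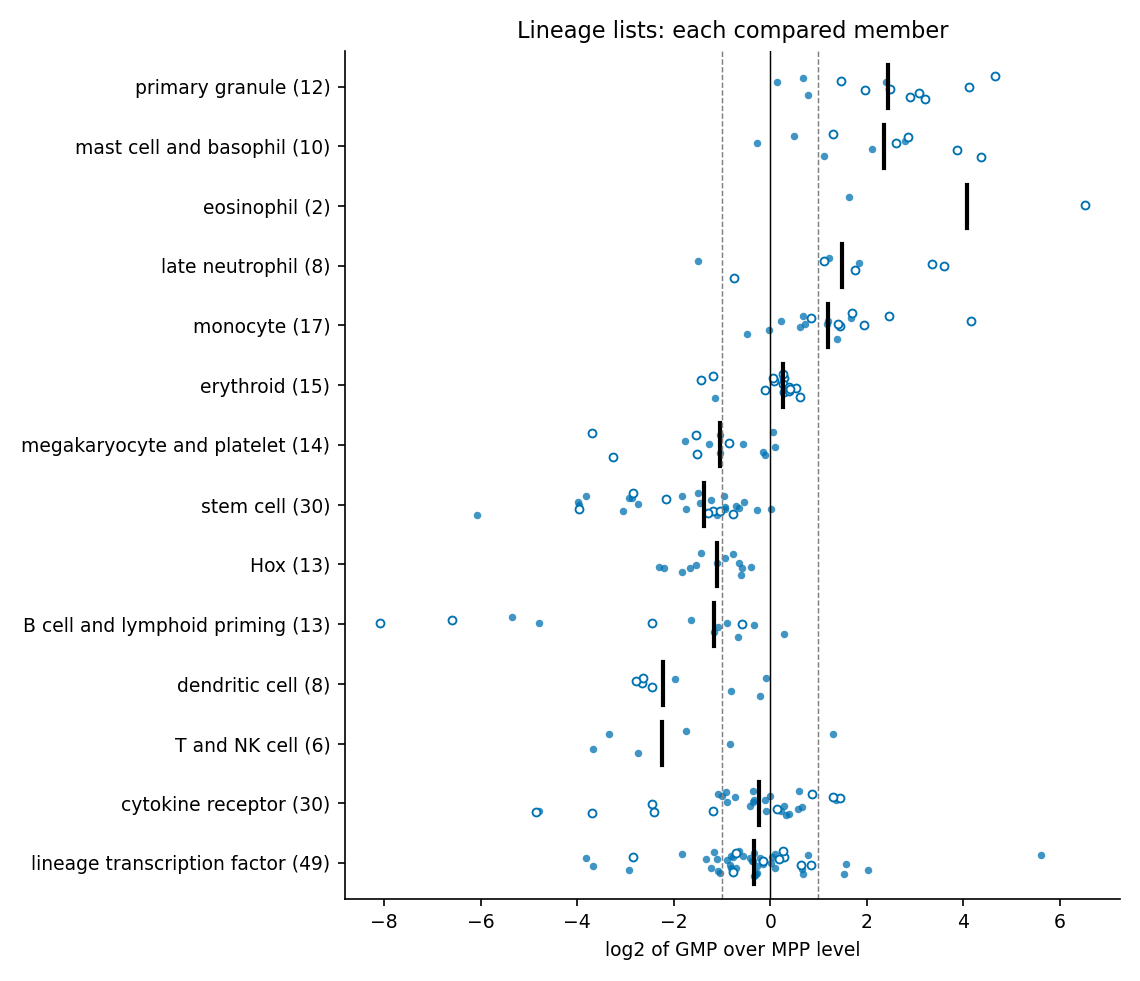
Log2 ratio of GMP over MPP level (x axis) for each compared member of 14 lineage lists, with the number of members in brackets; open points are genes marked as outliers by the authors in either table, thick bars are list medians, and dashed lines mark a fold of 2. Primary granule and mast cell medians lie at 2.44 and 2.36, those of the dendritic and T cell lists at -2.21 and -2.24, and nearly all erythroid points are open.

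Transcription factors of the blood lineages went both ways. Of 49 compared factors 4 were higher in GMP, 11 were higher in MPP and the median was -0.34. Cebpe, the C/EBP member of late granulocyte development (chromosome 14, 54710360 to 54712174, minus strand), was at 0.306 ppm in MPP and 15.03 in GMP (log2 ratio 5.62). The mean signal of Cebpe in MPP was below 10, so the size of that ratio is poorly fixed. Cebpa, which is needed to form GMP, was at 30.1 and 86.4 (1.52), Cebpd at 2.12 and 8.59 (2.02), and Gfi1, a repressor of the granulocyte lineage, at 19.2 and 56.6 (1.56). The factors higher in GMP were thus 3 of the C/EBP family and Gfi1, whereas Cebpg, a further member of that family, was at 161 and 146 (-0.14). On the MPP side stood Mecom, a zinc finger factor of stem cells, at 86.4 and 11.4 (-2.92), and Hlf, a leucine zipper factor of stem cells, at 638 and 88.4 (-2.85). Myb, a factor of progenitor growth, took the largest share of signal of the list in both, 1333 and 2111 (0.66), and PU.1, listed under its older symbol Sfpi1, was at 73.1 and 118 (0.69).

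Cytokine receptors also went both ways. Of 30 compared receptors 3 were higher in GMP and 8 in MPP, with a median of -0.23, or -0.11 over the 21 unmarked genes. Il18r1, a chain of the interleukin 18 receptor, was at 23.8 ppm in MPP and 0.820 in GMP (log2 ratio -4.86), and Il1r1, the interleukin 1 receptor, at 170 and 31.8 (-2.42). On the GMP side, beside Csf1r, were Ifngr1, a chain of the interferon gamma receptor, at 89.6 and 231 (1.37), and Il1rl1, the interleukin 33 receptor of mast cells, at 12.2 and 30.1 (1.301). Csf3r, the receptor for granulocyte colony-stimulating factor, was at 243 and 189 (-0.36), and Csf2rb, the shared chain of the receptors for interleukins 3 and 5 and GM-CSF, at 125 and 227 (0.86). Most adhesion genes stayed within a fold of 2, with 4 of 23 higher in MPP, none in GMP and a median of -0.09. Itga9, an integrin chain, was at 18.1 and 1.88 (-3.26), whereas Itga4, the integrin chain that binds VCAM1, was at 1058 and 1037 (-0.03).

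Genes of protein folding and secretion in the endoplasmic reticulum were higher in GMP throughout the list. All 40 had ratios above 0, 12 passed a fold of 2 and the median was 0.83, or 0.80 over the 34 unmarked genes, beside a median of -0.09 over all compared genes. Their summed level was 8645 ppm in MPP and 17810 in GMP. Sdf2l1, a cofactor of the chaperone BiP, was at 35.2 and 118 (log2 ratio 1.75), Calr, the lectin chaperone calreticulin, at 413 and 1251 (1.599), and Hspa5, which encodes BiP, at 638 and 1710 (1.42). P4hb, a protein disulfide isomerase, was at 346 and 950 (1.46). Canx, the membrane-bound partner of calreticulin, was at 940 and 1597 (0.77), and Ssr3, part of the translocon, at 610 and 1185 (0.96). The signal peptidase subunit Sec11c was at 72.1 and 79.0 (0.13), among the smallest ratios of the list.

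Lists of growth machinery had medians slightly above 0 and narrow ranges. None of the 79 cytosolic ribosomal protein genes, 75 mitochondrial ribosomal protein genes, 34 ribosome biogenesis genes, 22 aminoacyl-tRNA synthetases, 38 proteasome genes or 74 oxidative phosphorylation genes passed a fold of 2. Their medians were 0.09, 0.21, 0.25, 0.27, 0.25 and 0.26, in that order. The number of genes above 0 was 57 of 79, 64 of 75, 31 of 34, 18 of 22, 36 of 38 and 69 of 74. The 14 reference genes, with a median of 0.15, lay between the first of these medians and the rest. The cytosolic ribosomal median was 0.03 at WT and 0.14 at Tet2KO levels, so its direction rests mostly on Tet2KO, and the scalings tried moved every ratio by up to 0.07. Npm1, the nucleolar chaperone nucleophosmin, was at 2702 and 3688 (0.45), and Rpl10, a large-subunit protein, at 657 and 962 (0.55). Cell cycle lists had medians of 0.09 for 45 DNA replication genes, the same as for the cytosolic ribosomal list, and of -0.05 for 39 mitosis genes and -0.05 for 34 replication-dependent histone genes, none past a fold of 2. The medians of the mitosis and histone lists changed sign to 0.03 when all ratios were recentred. Over the 21 histone genes without an outlier mark the median was also 0.03.

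Haem and sugar metabolism held a few wide gaps. Alas1, the housekeeping form of the first enzyme of haem synthesis, was at 43.5 ppm in MPP and 285 in GMP (log2 ratio 2.71), whereas its erythroid form Alas2 lay the other way, as given above. The other 7 haem enzymes stayed within a fold of 2, among them Fech, which inserts the iron, at 45.8 and 56.7 (0.31) and Ppox at 16.4 and 11.6 (-0.50). Of 16 glycolysis genes 2 were higher in GMP and 1 in MPP, with a median of 0.57. Hk3, the hexokinase of myeloid cells, was at 63.7 and 152 (1.26), and Slc2a3, a glucose transporter, at 51.3 and 22.6 (-1.18). Of 23 lysosome genes 2 were higher in GMP and 1 in MPP, with a median of 0.30, and Cd63, a membrane protein of lysosomes and granules, was at 43.1 and 96.4 (1.16). Of 19 cholesterol synthesis genes 1 was higher in GMP, Fdps, a farnesyl diphosphate synthase, at 10.7 and 22.6 (1.08), and none in MPP.

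Genes of DNA methylation and its removal were at similar levels. Of 9 compared genes 1 was higher in GMP and none in MPP, with a median of -0.03, or -0.05 over the 8 unmarked genes. Idh1, which makes the 2-oxoglutarate that TET enzymes use, was at 34.4 and 120 (log2 ratio 1.81) and was marked in both tables. Tet1 was at 379 and 194 (-0.97), Tet2 at 223 and 294 (0.40) and Tet3 at 287 and 275 (-0.06). Dnmt3b, a methyltransferase that sets new marks, was at 157 and 88.6 (-0.82), Dnmt3a at 271 and 230 (-0.23), and Dnmt1, which copies marks at replication, at 806 and 815 (0.02). Tet1 and Dnmt3b thus had the lowest ratios of the list, both within a fold of 2, although Tet1 passed it at Tet2KO levels (-1.07, against -0.87 in WT).

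Interferon response genes were higher in MPP. Of 32 compared genes 12 passed a fold of 2 in that direction and none in the other, with a median of -0.83. Oas2 and Oas3, sensors of double-stranded RNA, were at 40.6 and 3.12 (log2 ratio -3.70) and at 57.4 and 8.97 (-2.68). Rsad2, the antiviral protein viperin, was at 20.6 and 4.84 (-2.09) and Irf7, which amplifies the response, at 9.77 and 2.65 (-1.88). Ly6e, the list's member with the largest share of signal in GMP, went the other way at 891 and 1172 (0.40). Members thus differed widely in size.

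Antigen presentation genes were also higher in MPP, with all 18 ratios below 0, 8 past a fold of 2 and a median of -0.97, or -0.61 over the 11 unmarked genes. Ciita, the master regulator of MHC class II, was at 8.37 ppm in MPP and 0.736 in GMP (log2 ratio -3.51). The class II genes H2-Aa and H2-Eb1 were at 65.3 and 7.86 (-3.05) and at 12.1 and 1.56 (-2.96), and Cd74, the invariant chain, at 69.5 and 10.1 (-2.79). Class I genes differed less, with H2-K1 at 1018 and 675 (-0.59) and B2m, the light chain, at 3325 and 2776 (-0.26). Part of the class II list is shared with dendritic cell genes (Cd74 is in both lists), and its part in the result was not tested. Of 15 immediate early genes, which respond within minutes to stimuli including cell handling, 7 were higher in MPP and none in GMP, with a median of -0.87. Egr1 was at 9.89 and 2.19 (-2.18), Jun at 15.4 and 5.84 (-1.40) and Zfp36, an mRNA decay factor, at 50.1 and 16.1 (-1.63).

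**Figure D3:**
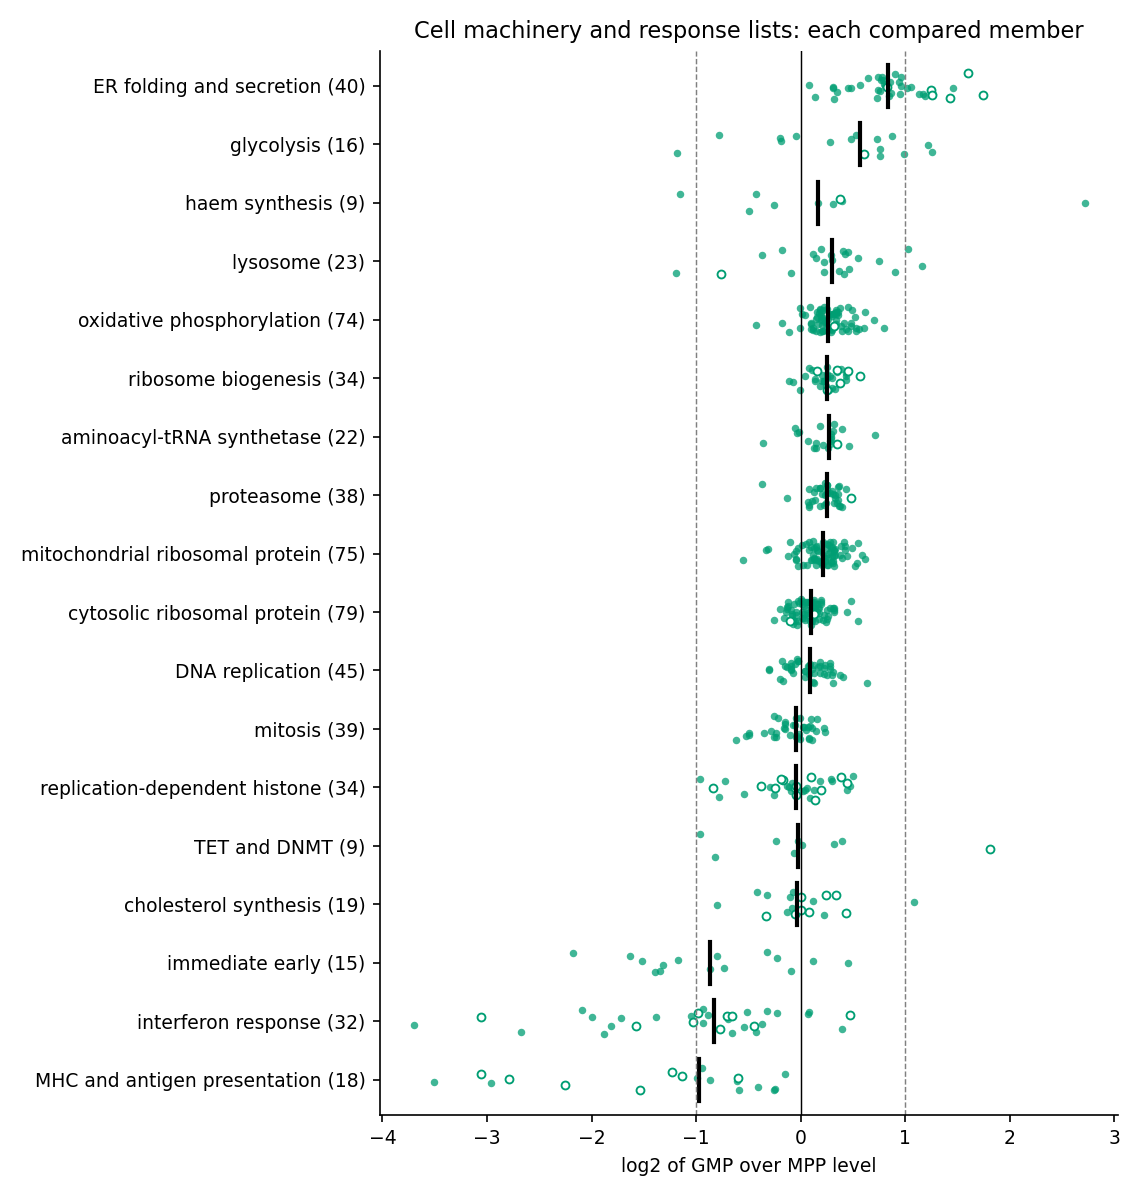
Log2 ratio of GMP over MPP level (x axis) for each compared member of 18 machinery and response lists, with the number of members in brackets; open points are genes marked as outliers by the authors in either table, thick bars are list medians and dashed lines mark a fold of 2. All 40 secretion genes lie right of 0 with a median of 0.83, growth lists are narrow with medians of 0.09 to 0.27, and the interferon and antigen presentation lists reach beyond -3.

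Each population's mean was then split into a WT and a Tet2KO level with the authors' log2 fold change. Tet2 itself was higher in the libraries labelled Tet2KO, with a log2 fold change of 0.44 (SE 0.0992) in MPP and 0.35 (SE 0.0748) in GMP (authors' deposited table), a value for the whole gene that does not check a deleted exon. Directions therefore rest on the labels. The split levels are approximate, since the authors' fold changes may be shrunken towards 0. All 265 genes higher in GMP and all 842 higher in MPP kept their direction in both genotypes, which their choice by a pooled fold of 2 largely fixes, and 237 and 725 of them passed a fold of 2 in both. Of all 10315 compared genes 8925 had the same direction in both. Mpo was at 2192 ppm in WT and 3192 in Tet2KO MPP and at 19401 and 20472 in GMP, which gives log2 ratios of 3.15 in WT and 2.68 in Tet2KO. Flt3 was at 372 and 283 in MPP and at 54.6 and 65.4 in GMP, with log2 ratios of -2.77 and -2.12. Dntt was at 373 and 149.5 in MPP and at 2.86 and 2.57 in GMP, with log2 ratios of -7.03 and -5.86. For these 3 the gap was narrower in Tet2KO, and in each the larger difference between the genotypes lay in MPP, where all 3 carried an outlier mark. Ly6a, which was unmarked, was at 30.4 and 30.1 in MPP and at 1.67 and 2.23 in GMP, with log2 ratios of -4.19 and -3.75.

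The gap between the populations was narrower in Tet2KO than in WT for 188 of the 265 genes higher in GMP (70.9%) and 531 of the 842 higher in MPP (63.1%), beside 54.2% of all compared genes. The size of the shift was small, with a median of -0.20 on the log2 scale for the first set and 0.11 for the second, against medians of 1.75 and -1.58 for the gap in WT. Without marked genes the counts were 127 of 184 and 456 of 702. No test of these shares was made, since genes are not replicates and the tables hold no values per library. Some genes went the other way: Mecom was at 102 and 70.6 in MPP and at 14.7 and 8.14 in GMP, with log2 ratios of -2.80 in WT and -3.12 in Tet2KO.

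**Figure D4:**
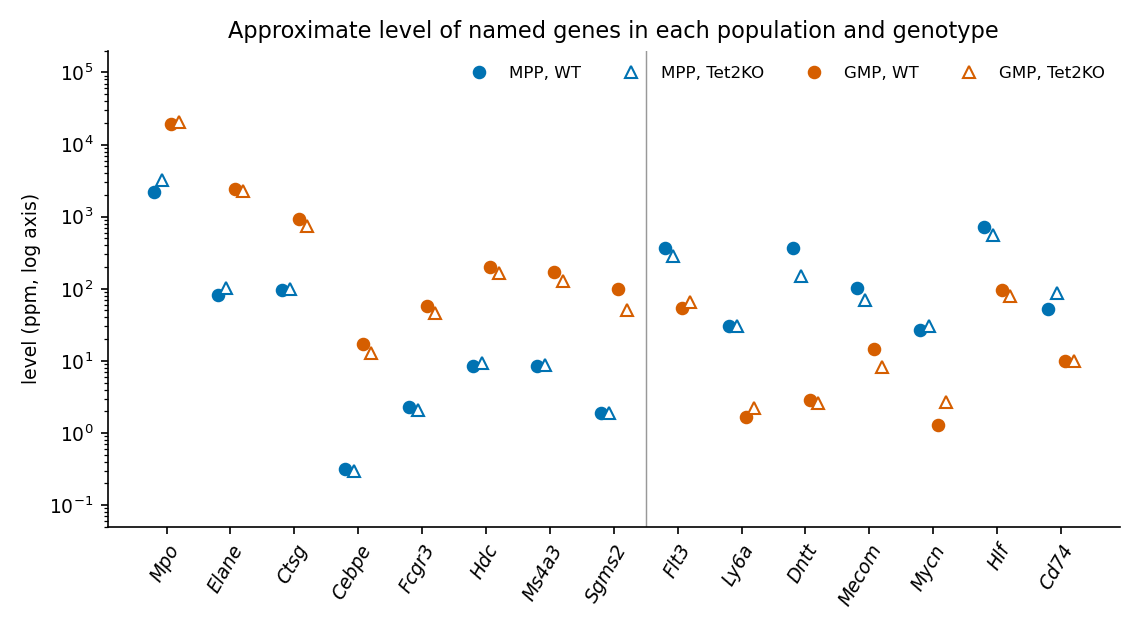
Approximate level ppm (log axis) of 15 named genes in MPP (blue) and GMP (orange), split into WT (filled circles) and Tet2KO (open triangles) with the authors' fold change; each point is a group mean without an error, which the tables do not give. In every gene the distance between the populations is larger than that between the genotypes, such as for Elane, at 81.3 and 104 in MPP and 2406 and 2278 in GMP.

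The authors' own comparison of Tet2KO with WT was then read for the genes that differ between the populations. It uses the same libraries as the population difference, whose means pool both genotypes, so the values are set side by side and no overlap is tested. The split levels above were computed from these same fold changes. The narrower gap in Tet2KO and the medians below are therefore not separate results. Among the 265 genes higher in GMP, the authors' deposited table for GMP tested 215 and called 14 higher and 31 lower in Tet2KO at an adjusted p below 0.05, beside 1.83% and 2.44% of all compared genes tested there. Their median log2 fold change was -0.09, and 62.8% of them lay below 0. Among the 842 genes higher in MPP, that authors' deposited table tested 734 and called 47 higher and 11 lower, with a median of 0.15 and 31.1% below 0. The direction of the medians thus differed between the sets in GMP.

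In MPP the numbers were small. The authors' deposited table for MPP tested 195 of the genes higher in GMP and called 1 higher and 4 lower, beside 0.342% and 0.272% of all compared genes tested there, with a median log2 fold change of 0.04. The 4 were Chdh, choline dehydrogenase, Gfi1, Ncf1 and Nucb2, a calcium-binding protein. Of the genes higher in MPP it tested 732 and called 9 higher and 8 lower, with a median of 0.03. The GMP pattern of medians to either side of 0 was therefore not seen in the MPP table, although the difference between the tables was not tested.

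Of the primary granule list, the authors' deposited table for GMP tested 9 genes and called none higher and 3 lower in Tet2KO, namely Ctsg, Ms4a3 and Srgn, with a median log2 fold change of -0.13. Over all compared genes tested in GMP, 1.83% were called higher and 2.44% lower. The counts of this list and of those below stand beside these shares, without a test. By the authors' deposited table Mpo and Prtn3 lay above 0 and were not called, with fold changes of 0.08 (SE 0.0774, adjusted p = 0.691) and 0.04 (SE 0.112, adjusted p = 0.919). Among the 31 genes called lower, Olr1, a lectin-like scavenger receptor, was at 42.2 ppm in WT and 15.7 in Tet2KO GMP and near 1 in MPP, and its log2 fold change in the authors' deposited table was -1.43 (SE 0.170, adjusted p = 2.11e-13). Sgms2, a sphingomyelin synthase, was at 101 and 50.4 in GMP and 1.88 and 1.90 in MPP, with a fold change of -0.9996 (SE 0.158, adjusted p = 1.84e-07) by the authors' deposited table for GMP. Ms4a3 and Ctsg had fold changes of -0.40 (SE 0.0976, adjusted p = 0.00394) and -0.31 (SE 0.0767, adjusted p = 0.00434) by the authors' deposited table. Against the population gap of Olr1, Sgms2, Ms4a3 and Ctsg, with log2 ratios of 3.07 to 5.32, the change between the genotypes was small. Of the monocyte list the authors' deposited table for GMP tested 14 genes and called 5 higher and none lower, with a median of 0.31 and 3 genes below 0. Csf1r, among the 5, had a fold change of 0.56 (SE 0.111, adjusted p = 9.29e-05) by the authors' deposited table, whereas Lyz2 lay below 0 at -0.17 (SE 0.121, adjusted p = 0.540). Of the 7 NADPH oxidase genes the authors' deposited table for GMP called 1 higher, Cybb at 0.87 (SE 0.152, adjusted p = 5.64e-06), and 2 lower, Ncf1 at -0.35 (SE 0.110, adjusted p = 0.0424) and Rac2 at -0.20 (SE 0.0501, adjusted p = 0.00408). These lists were read here after their values were seen. The genes named here and among the genes higher in MPP were picked after their values were seen.

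Among the genes higher in MPP, the stem cell and homeobox factors Mecom, Hoxa9 and Hoxa10 were in the lower group of 11, with fold changes of -0.85 (SE 0.219), -0.60 (SE 0.175) and -1.03 (SE 0.309) and adjusted p of 0.00684, 0.0218 and 0.0302, as the authors' deposited table for GMP gives them. Mmrn1 was in the higher group of 47, at 1.98 ppm in WT and 8.23 in Tet2KO GMP, with a fold change of 2.06 (SE 0.302, adjusted p = 1.57e-08) by the authors' deposited table. Mycn was at 1.27 and 2.73 in GMP, with a fold change of 1.10 (SE 0.346, adjusted p = 0.0411) by the authors' deposited table. F2r, the thrombin receptor, was at 26.2 and 42.2, with a fold change of 0.69 (SE 0.155, adjusted p = 0.000966) by the authors' deposited table. In Tet2KO GMP these 3 still lay below their MPP levels, which were 49.0, 28.3 and 116 over both genotypes.

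**Figure D5:**
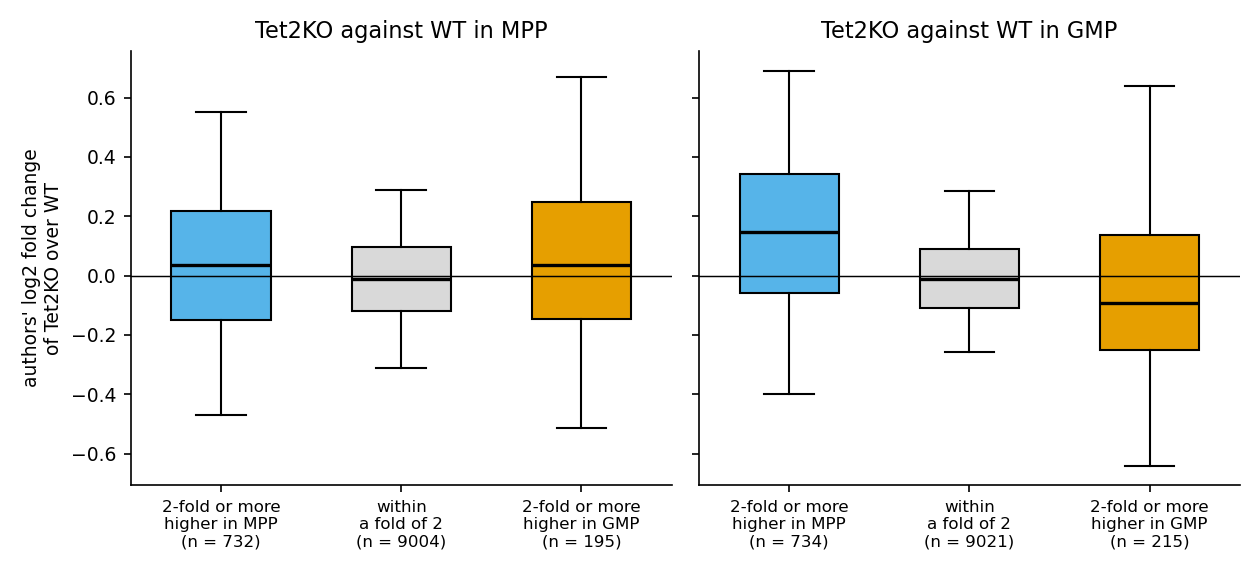
The authors' log2 fold change of Tet2KO over WT (y axis) in the MPP table (left) and the GMP table (right) for genes higher in MPP, within a fold of 2, and higher in GMP; boxes span the quartiles, lines inside them are medians and whiskers reach the 5th and 95th percentiles over the genes the authors tested, whose number is given. In GMP the medians are 0.15 for genes higher in MPP and -0.09 for genes higher in GMP, and in MPP 0.03 and 0.04.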

How the data were processed

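RNA was measured in 16 libraries of sorted progenitors, which per the labels' protocols were made from 2 ng of amplified RNA and read as single ends of 75 bp. The submitters' processing notes name STAR and DESeq2 without versions. Which program counted reads, and on which annotation, is not given in the sources used here. For each population the authors deposited 1 table, with the mean normalized signal of each gene over 8 libraries. The tables also hold a log2 fold change (Tet2KO against WT), its SE, and the p-value with its adjusted form, per the file headers. They hold no totals or values per library, so depth is unknown. The deposited status column marks genes as low (a mean under 10) or as outliers. The median SE of the authors' deposited log2 fold change over compared genes was 0.152 in MPP and 0.115 in GMP. Replicates are individual mice.

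Levels, ratios, splits by genotype and counts were computed with Python 3.11.15, numpy 2.4.6, pandas 2.3.3 and scipy 1.17.1. Ratios and the recovery of changed genes were tested on simulated data without genotypes. The split was checked only for its arithmetic, which says nothing about shrunken fold changes or marked genes. No pseudocount was added. Rn45s, left out of the sums, took 6.71% of the summed signal in MPP and 9.06% in GMP. A further 27 names per table had been turned into dates and were not joined. The 41 lists and all members were chosen with earlier results of these data known; 10 symbols were matched through RefSeq synonyms. Named genes are the 5 markers, the 10 of highest level per population, the 15 of largest ratio per direction, and per list up to 6 members past a fold of 2 and up to 3 of highest level within it, with all genes of the sort gate, NADPH oxidase, DNA methylation and haem lists. Defining markers below the minimum, and some further genes, such as Cebpa, Gfi1 and Satb1, were chosen after their values were seen. Some genes that the rule takes are left out of the text. Alternatives were other scalings, minimum means, pseudocounts, folds and adjusted p, single genotypes, and leaving out marked genes.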

Additional observations from a re-analysis of the deposited data

How the results depend on the processing

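No paired analysis was possible because the deposited tables hold no values per library, and leaving out replicates and a replicate block were not run for that reason. The shares of compared genes higher in GMP and in MPP, 2.57% and 8.16%, followed the minimum and the fold: 2.34% and 4.99% of 7339 genes at a mean of 200 or more in at least 1 table, 1.72% and 4.64% of 9535 at 50 or more in both, and 6.89% and 18.8% of 18294 with no minimum. At a fold of 4 they were 0.960% and 2.52% (99 and 260 genes), and at a fold of 1.5 5.76% and 17.3% (594 and 1788 genes). Those higher in MPP were 12.3% of 12448 genes (1527) at a minimum of 10 and 4.60% (474) with a pseudocount of 5 ppm. The GMP side held 19.9% to 32.0% of the genes past the fold over all alternatives. At a fold of 4 the authors' calls in GMP were 5 higher and 13 lower in Tet2KO among the 99 genes higher in GMP. Among the 260 higher in MPP they were 12 higher and 4 lower, and not every gene of either set was tested. Over all compared genes tested in GMP the shares were 1.83% higher and 2.44% lower. In the authors' MPP comparison, 1 gene higher in GMP was called lower in Tet2KO, and 4 genes higher in MPP in each direction. Over all compared genes tested there the shares were 0.342% higher and 0.272% lower. At an adjusted p below 0.1, the MPP comparison called 2 genes of those higher in GMP as higher in Tet2KO, against 1 below 0.05. The share of all compared genes called at 0.1 is not given here, so nothing is read from that count. The median of the late neutrophil list reversed to -0.47 with no minimum, and that of the T and NK cell list to 1.29 at 200 or more, or at 50 or more in both, where Nkg7 alone is left. Of 491 list medians under alternatives 466 moved by less than a fold of 1.5, and 3 of those past a fold of 2 reversed. Of 2890 values of named genes 2784 moved by less than that and none reversed. That second count was largely fixed in advance. Another minimum, or leaving out marked genes, cannot change the ratio of a single gene, and the scalings moved every ratio by up to 0.07. The erythroid median changed sign from 0.27 to -1.15 without marked genes, where Alas2 alone is left. Near 0, the medians of the adhesion, DNA methylation, haem, cholesterol, mitosis, histone and BCL2 lists changed sign under at least 1 alternative. Unknown depth and low means limit the size of ratios under a mean of 50. This holds most for genes with a mean below 10 in 1 population, such as Cebpe, Nkx2-3, Esam, Lax1, Il7r, Gata3, Lck, Il18r1 and Ciita.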

Other observations

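Other gene groups gave single members with wide gaps. Of 7 compared imprinted genes, which are expressed from 1 parental copy, 3 were higher in MPP and 1 in GMP. Sgce, a sarcoglycan, was at 13.4 ppm in MPP and 1.75 in GMP (log2 ratio -2.94), and Igf2r, which clears IGF2, at 36.3 and 9.09 (-1.999). Grb10, a growth factor receptor adaptor, was at 46.8 and 119 (1.34), while Gnas, a G protein subunit, was at 563 and 573 (0.02). None of the 9 BCL2 family genes compared passed a fold of 2, and their median was -0.15. Mcl1, which protects myeloid progenitors from cell death, was at 277 and 197 (-0.49). Of 17 cyclins, their kinases and inhibitors, 1 was higher in MPP, Cdkn2d, an inhibitor of CDK4 and CDK6, at 12.98 and 5.999 (-1.11).

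Among genes outside every list, Chst13, a chondroitin sulfotransferase, was at 0.385 in MPP and 12.9 in GMP (log2 ratio 5.06), and Mgam, an intestinal-type maltase, at 1.90 and 58.3 (4.94). On the other side Mn1, a transcription cofactor known from myeloid leukaemia, was at 14.9 and 0.235 (-5.98), Tox, a factor of lymphocyte development, at 23.1 and 0.474 (-5.61), and Tnip3, an inhibitor of NF-kB signalling, at 34.0 and 0.874 (-5.28). The GMP means of these 3 and the MPP mean of Chst13 were below 10, so their ratios are less well fixed than those of abundant genes. Mgam was marked as an outlier in GMP and Tox in MPP.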
